A study of Rattus norvegicus with 22 samples.

Results

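The genes of the NMDA receptor subunits, Grin1, Grin2a, Grin2b, Grin2c, Grin2d and Grin3a, were examined in the nucleus accumbens (NAc) of male Wistar rats that consumed ethanol (EtOH). The 6 genes were taken by their exact symbols from the 17310 genes listed in the RNA-seq count files, and all 6 were listed. In experiment 1, 5 rats had continuous access to 6% (v/v) EtOH beside water for 8 weeks, and 5 rats drank water only. In experiment 2, all 12 rats drank from 6% EtOH and water during 4 weeks, then came 3 weeks of gavage and another 2 weeks of drinking, and during the gavage weeks 6 rats received EtOH (2.5 g/kg, 30% v/v, 2 times a day) by stomach tube and 6 received water by the same route. The control rats of experiment 2 were therefore EtOH drinkers as well, and the experiment held no rats without EtOH. The question was whether voluntary drinking, or forced EtOH on top of it, came with another level of the subunit transcripts.

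NMDA receptors are glutamate-gated cation channels built from 4 subunits, and they open when glutamate and a co-agonist, glycine or D-serine, are bound while the membrane is depolarised enough to release the magnesium block. GluN1, encoded by Grin1, is the obligatory subunit that binds the co-agonist. The GluN2 subunits, GluN2A to GluN2D encoded by Grin2a to Grin2d, bind glutamate and set the kinetics and the magnesium sensitivity of the channel, and GluN3A, encoded by Grin3a, gives channels with low calcium permeability. EtOH inhibits NMDA receptors acutely. In the NAc the projection neurons receive glutamate input from the cortex, the hippocampus, the amygdala and the thalamus.

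The sequences before the transcription starts are shown as a description, and any part of them in the levels was not tested. In experiment 2, 3 of the genes, Grin1, Grin2c and Grin2d, rose and fell together from rat to rat, as described further down. Grin3a did not follow them, and in experiment 1 no pair of the 3 had a relation that passed the test. RefSeq promoters of build GRCr8 were found for 4 of the 6 genes. Each sequence holds the 250 bases before the annotated start on the strand of the gene, 5′ to 3′, and capitals mark every CG (CpG), a motif that reads the same on both strands.
Grin1, chr3:28528755-28529004, minus strand: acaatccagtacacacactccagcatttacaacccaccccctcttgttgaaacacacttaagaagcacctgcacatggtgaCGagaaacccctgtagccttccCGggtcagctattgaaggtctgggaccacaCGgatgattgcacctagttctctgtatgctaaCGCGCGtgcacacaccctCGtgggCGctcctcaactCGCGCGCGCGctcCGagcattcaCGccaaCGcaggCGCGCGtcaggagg
Grin2c, chr10:101005139-101005388, minus strand: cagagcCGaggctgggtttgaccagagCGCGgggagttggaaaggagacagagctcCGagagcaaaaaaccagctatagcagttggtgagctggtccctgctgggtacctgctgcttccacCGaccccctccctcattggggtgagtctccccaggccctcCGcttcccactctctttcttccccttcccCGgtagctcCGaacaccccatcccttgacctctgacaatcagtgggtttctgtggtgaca
Grin2d, chr1:105481237-105481486, minus strand: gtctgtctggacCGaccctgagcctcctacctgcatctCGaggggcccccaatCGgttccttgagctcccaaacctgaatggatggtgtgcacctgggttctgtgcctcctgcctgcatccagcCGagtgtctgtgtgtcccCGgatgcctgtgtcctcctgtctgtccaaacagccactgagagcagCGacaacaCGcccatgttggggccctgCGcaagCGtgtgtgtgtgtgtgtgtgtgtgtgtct
Grin3a, chr5:69001559-69001808, minus strand: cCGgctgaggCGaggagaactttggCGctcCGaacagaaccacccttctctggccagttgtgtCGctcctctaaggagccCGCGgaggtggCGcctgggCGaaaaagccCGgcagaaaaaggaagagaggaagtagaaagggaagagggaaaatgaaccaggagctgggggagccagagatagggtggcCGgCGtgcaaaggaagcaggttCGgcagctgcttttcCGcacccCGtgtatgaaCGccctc
At least 1 CG was found in 92.2% of the 33469 promoters in the table, with a median of 5 in windows of this length. The Grin1 window held 19 and the Grin3a window 16, more than in 81.6% and 76.2% of the promoters. The Grin2c and Grin2d windows held 8 and 9, more than in 58.4% and 61.5% of the promoters. The GC content of the 4 windows ranged from 57.6% in Grin1 to 60.4% in Grin2d and Grin3a, against a median of 51.2% over all promoters.

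The reads on genes numbered 2962291 to 5247386 per library in experiment 1 and 6713617 to 8765472 in experiment 2. The libraries of experiment 2 were more uneven. The reads placed outside annotated genes, as a percentage of these and the reads on genes, ranged from 48.4 to 51.1% in experiment 1, and in experiment 2 from 46.1 to 54.5% in the water gavage rats and from 49.8 to 58.0% in the EtOH gavage rats. Over 54% was found in 3 libraries, those of water gavage rat 1 (54.5%) and of EtOH gavage rats 1 (58.0%) and 2 (56.4%), so the fold changes of experiment 2 are also given without them. The first principal component held 74.0% of the variance of the tested genes in experiment 2 and 26.0% in experiment 1. The projection neuron markers of the NAc (Drd1, Drd2, Adora2a, Penk and 6 others) were counted in every library, with a sum of 2965 to 5767 CPM (counts per 1000000 reads on the tested genes, after TMM normalization) in experiment 1 and of 4564 to 8830 in experiment 2. The markers of cortical excitatory neurons summed to 189 to 773 CPM in experiment 1. In experiment 2 they summed to anything between 5.51 and 554, with Tbr1 or Neurod2 at 0 in some libraries. The lowest sums were 5.51 and 44.8 CPM in EtOH gavage rats 1 and 2 and 14.9 and 5.57 in water gavage rats 1 and 5. These libraries also had the highest shares of reads outside genes (58.0, 56.4, 54.5 and 52.8%). Levels are given below in CPM and differences as log2 fold changes of the EtOH group against the water group from edgeR's quasi-likelihood test. CPM values are not divided by transcript length, so the levels of different genes are not ranked.

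In experiment 1, no NMDA receptor subunit gene passed the test for a difference between the EtOH drinking and the water drinking rats. All 6 genes passed the filter on low counts and 0 were called at an adjusted p under 0.05, against 0% of all 8655 tested genes. By the unadjusted p under 0.05 the count was also 0 of 6, where 5.58% of the tested genes passed, and in no member were the 2 groups apart without overlap, as they were in 0.843% of genes. DESeq2 called 0% of 14022 genes and none of the 6. The sign of the fold change was positive for 2 members and negative for 4, and 49.5% of all tested genes had a positive one. The median log2 fold change of the 6 was -0.054, beside -0.0012 over all tested genes.

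Grin1, the obligatory subunit, was measured with the smallest error. The 5 water rats had 687, 737, 710, 839 and 670 CPM, and the 5 EtOH rats 696, 736, 702, 647 and 681 CPM. The groups overlapped almost fully, water rat 4 being the highest of all 10. The means were 729 ± 66.5 and 692 ± 32.5 CPM (SD, n = 5 each). The log2 fold change was -0.073 ± 0.065 (SE), with a 95% interval of -0.21 to 0.065 (adjusted p = 0.936).

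Grin2a and Grin2b encode the main GluN2 subunits of the adult forebrain, and their transcripts varied more from rat to rat. Grin2a was at 53.9, 48.8, 66.5, 105 and 61.3 CPM in the water rats and at 62.7, 77.0, 65.2, 47.1 and 44.7 CPM in the EtOH rats. Water rat 4 was again the highest and the EtOH rats lay inside the range of the water rats except for rats 4 and 5, just under it. This gave a log2 fold change of -0.17 ± 0.19 (95% interval -0.57 to 0.24, adjusted p = 0.963). Grin2b was at 55.0, 53.4, 69.0, 89.3 and 71.6 CPM in the water rats and at 55.2, 103, 68.5, 50.6 and 60.7 CPM in the EtOH rats. Here EtOH rat 2 was the highest and EtOH rat 4 the lowest, so that the EtOH group spanned the water group. The means of 67.6 ± 14.6 and 67.6 ± 20.8 CPM gave a log2 fold change of 0.0044 ± 0.18 (95% interval -0.38 to 0.38, adjusted p = 0.999). The coefficient of variation within groups was 29.2% for Grin2a and 26.6% for Grin2b, beside a median of 11.3% over the tested genes, and 97.1% and 95.6% of the genes varied less. Grin1, at 7.37%, varied less than most genes.

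Grin2c encodes GluN2C, a subunit of receptors with a weak magnesium block that is best known from the cerebellum and is also found in astrocytes. It was at 148, 163, 143, 149 and 161 CPM in the water rats and at 197, 145, 174, 143 and 163 CPM in the EtOH rats. EtOH rats 1 and 3 were the highest of all, but EtOH rats 2 and 4 were at the low end of the water group. For the group difference this gave 0.11 ± 0.086 (log2, 95% interval -0.077 to 0.29, adjusted p = 0.928). Grin2d, whose product GluN2D is found mainly in the young brain and later in interneurons, had few reads, 35 to 78 per rat. The water rats had 12.02, 19.2, 13.3, 17.6 and 15.2 CPM and the EtOH rats 17.1, 9.49, 15.4, 17.3 and 15.8 CPM, where EtOH rat 2 stood below all others. Its log2 fold change was -0.044 ± 0.18 (95% interval -0.43 to 0.35, adjusted p = 0.995).

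Grin3a was at 22.7, 31.2, 38.1, 33.2 and 32.2 CPM in the water rats and at 26.7, 29.8, 29.7, 34.9 and 30.3 CPM in the EtOH rats. All 5 EtOH rats lay within the range of the water rats. Between the groups the log2 fold change was -0.065 ± 0.13 (95% interval -0.34 to 0.21, adjusted p = 0.983). Exact permutation tests on the log2 CPM of single genes (two-sided, n = 5 each) gave unadjusted p-values of 0.341 for Grin1 and Grin2c and of 0.563 to 0.929 for the other four genes. The interval of Grin1 bounds a change to 0.864 to 1.05 times the water level, whereas for Grin2a it reaches from 0.673 to 1.18 times.

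**Figure D1:**
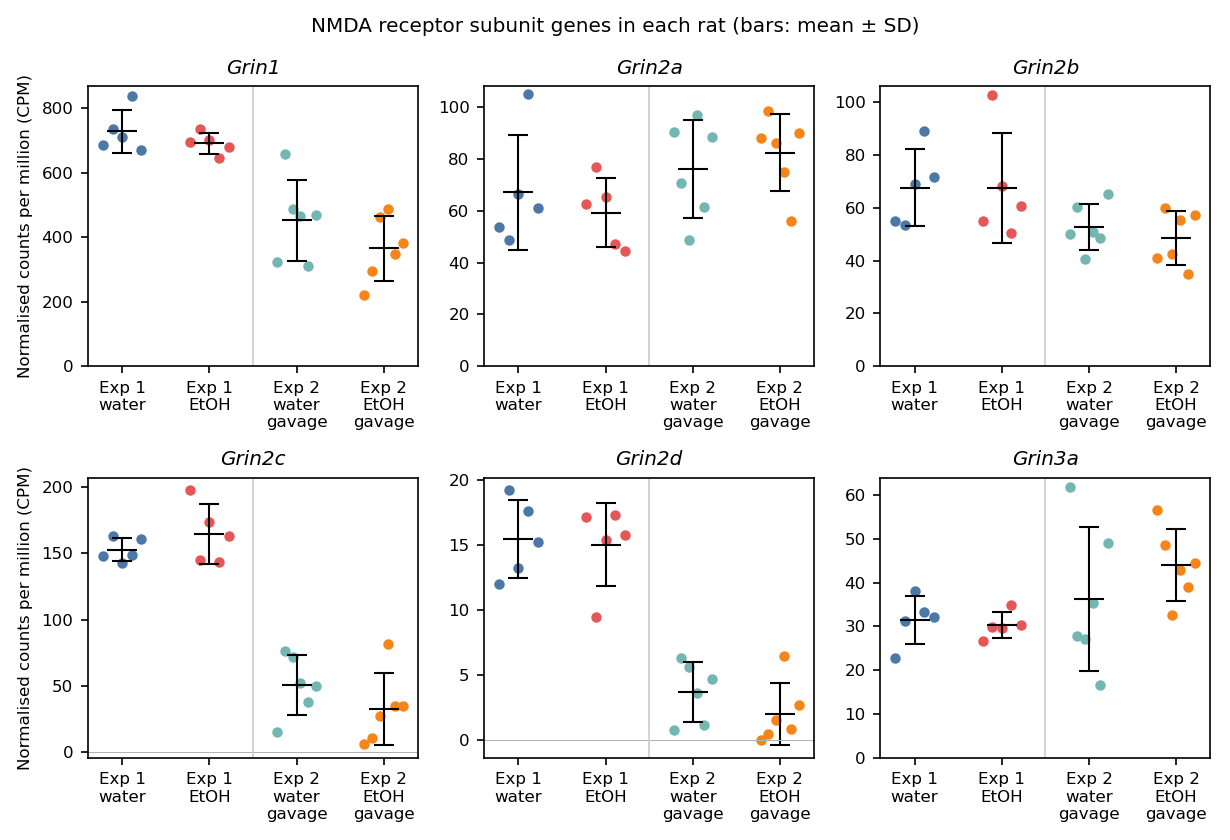
Normalised CPM (vertical axes, from 0 or just below it) of each subunit gene in each rat, grouped by experiment and treatment on the horizontal axis. Points are rats (5, 5, 6 and 6) and bars the mean ± SD. In no panel are the EtOH and water groups of an experiment apart; Grin2c and Grin2d have the widest spread in experiment 2, with Grin2c between 6.09 and 81.9 CPM, and the experiments used different library kits, so levels are compared within each experiment only.

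In experiment 2, no subunit gene passed the test for a difference between EtOH gavage and water gavage, and Grin1, Grin2c, Grin2d and Grin3a varied more between the rats of a group than in experiment 1, with coefficients of variation of 28.1%, 59.9%, 82.5% and 32.4%, whereas Grin2a and Grin2b varied less. The filter on low counts kept 5 of the 6 genes, since the mean count of Grin2d was 21.1 and the filter lay at 66.4. At an adjusted p under 0.05, 0 of 5 were called, against 0% of the 8655 tested genes, and DESeq2 called 0% of 14110. By the unadjusted p the count was 0 of 5, against 1.33% of all tested genes, and 0 of 5 had groups without overlap, against 0.0116%. Positive fold changes were found for 2 of the 5, and for 50.1% of all tested genes. The median log2 fold change was -0.12 for the 5 members and 0.0009 for all tested genes.

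Grin1 ranged from 312 to 657 CPM in the water gavage rats, with a median of 467, and from 220 to 488 CPM in the EtOH gavage rats, with a median of 365. The 2 lowest rats of all were EtOH gavage rats 1 and 2, and only 1 of 6 EtOH gavage rats was above the water gavage median. The means were 452 ± 127 and 366 ± 101 CPM (SD, n = 6 each), and the log2 fold change was -0.31 ± 0.22 (95% interval -0.78 to 0.16, adjusted p = 0.675). Without the 3 libraries with over 54% of reads outside genes it was -0.18 ± 0.19 (adjusted p = 0.999).

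Grin2a lay between 48.7 and 96.9 CPM in the water gavage rats (median 79.6) and between 56.2 and 98.5 CPM in the EtOH gavage rats (median 87.2), ranges that nearly coincide. The log2 difference between the groups was 0.11 ± 0.18 (95% interval -0.28 to 0.51, adjusted p = 0.760). Grin2b lay between 40.8 and 65.2 CPM with water gavage (median 50.5) and between 34.9 and 60.0 CPM with EtOH gavage (median 49.0). Its log2 fold change was -0.12 ± 0.16 (95% interval -0.47 to 0.23, adjusted p = 0.723). Both genes varied by less than the median gene of this experiment, with within-group coefficients of variation of 21.5% and 18.9% beside 23.9%. Without the 3 libraries the fold change of Grin2a was 0.071 ± 0.21 and that of Grin2b -0.16 ± 0.18 (log2, adjusted p = 0.999 each).

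Grin2c had the largest fold change of the 5 and also the largest spread. It ranged from 15.2 to 76.1 CPM in the water gavage rats (median 50.9) and from 6.09 to 81.9 CPM in the EtOH gavage rats (median 31.0). The lowest rats were EtOH gavage rats 1 and 2 and water gavage rat 1, the 3 libraries with the most reads outside genes, and the highest of all was EtOH gavage rat 4. The log2 fold change was -0.63 ± 0.53, with a 95% interval of -1.77 to 0.50 (adjusted p = 0.675). Without EtOH gavage rat 4 it was -1.15 ± 0.48 (adjusted p = 0.398), and without the 3 libraries it was -0.36 ± 0.32 (adjusted p = 0.999). The highest level was 13.5 times the lowest, where the median gene had a ratio of 2.21, and 96.2% of the tested genes varied less within groups.

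Grin2d had 6 to 48 reads in the water gavage rats and 0 to 45 in the EtOH gavage rats. The water gavage rats ranged from 0.800 to 6.31 CPM (median 4.15). The EtOH gavage rats ranged from 0 to 6.49 CPM (median 1.19), the 0 being EtOH gavage rat 1, where a count of 0 allows a level of up to 0.435 CPM (3 reads, counting error only). As with Grin2c, EtOH gavage rat 4 was the highest of all. Without the filter, the log2 fold change was -0.85 ± 0.74 with a 95% interval of -2.44 to 0.73 (adjusted p = 0.703 over 14121 genes), a value that depends on how a count of 0 is handled, and an exact permutation test on the log2 CPM gave p = 0.169 (two-sided, n = 6 each).

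Grin3a ranged from 16.6 to 61.8 CPM in the water gavage rats (median 31.6) and from 32.6 to 56.7 CPM in the EtOH gavage rats (median 43.7). All 6 EtOH gavage rats were above the water gavage median, but water gavage rat 1 was the highest of all and rat 6 of that group was above 5 of the 6. The log2 fold change was 0.28 ± 0.27 (95% interval -0.30 to 0.86, adjusted p = 0.675), and the exact permutation test gave an unadjusted p = 0.225 (two-sided, n = 6 each). It was 0.35 ± 0.26 without the 3 libraries. As a fold of the water gavage level, the 95% interval ran from 0.812 to 1.81 for Grin3a and from 0.294 to 1.42 for Grin2c.

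Whether the EtOH difference itself differed between the experiments was tested as an interaction in one fit over the 8176 genes that passed the filter in both. That fit assumes one spread per gene for both experiments, although the median coefficient of variation within groups was 11.3% in experiment 1 and 23.9% in experiment 2. In it the SE of the Grin1 fold change in experiment 1 was 0.19, in place of 0.065. The errors and p-values of the interaction rest on that assumption. Of the genes in this fit 0 were called, and the adjusted p of the 5 members was between 0.813 and 0.875. The difference between the experiments was -0.73 ± 0.61 for Grin2c on the log2 scale, 0.34 ± 0.33 for Grin3a, 0.29 ± 0.29 for Grin2a, -0.23 ± 0.26 for Grin1 and -0.12 ± 0.26 for Grin2b. The 2 experiments also differed in library kit and gavage, which cannot be told apart from the exposure.

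**Figure D2:**
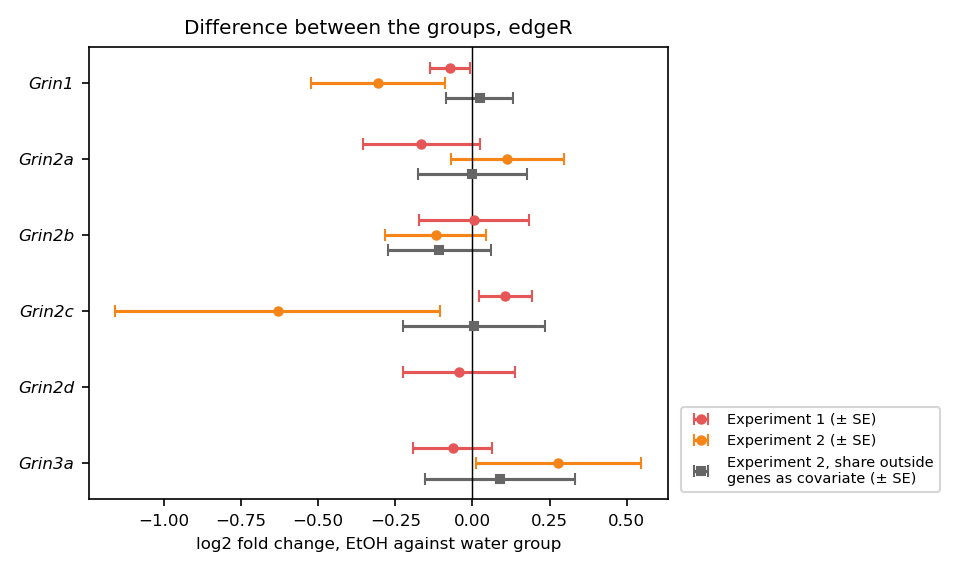
Log2 fold change (horizontal axis) of the EtOH against the water group for each subunit gene, with ± 1 SE. Circles are experiment 1 and experiment 2 and squares experiment 2 with the share of reads outside genes as a covariate; Grin2d was tested in experiment 1 only. Grin2c stood at -0.63 in experiment 2 and at 0.0047 with the covariate.

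The balance between subunit transcripts was compared through ratios of read counts within a rat, which do not depend on the library size. The ratios are of RNA reads in pieces of tissue, and the subunit composition of the receptors was not measured. The ratio of Grin2b to Grin2a, the pair that exchanges during maturation of forebrain synapses, had a mean log2 value of 0.040 ± 0.17 in the water rats and 0.17 ± 0.26 in the EtOH rats of experiment 1 (SD, n = 5 each). In experiment 2 it was -0.51 ± 0.31 with water gavage and -0.77 ± 0.25 with EtOH gavage (SD, n = 6 each), so the EtOH groups lay 0.13 higher in the one and 0.26 lower in the other. Neither difference passed an exact permutation test (two-sided, p = 0.405 and p = 0.136, adjusted over the 6 ratio tests 0.486 and 0.409).

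The summed Grin2 reads relative to Grin1 differed by 0.087 in experiment 1 and by 0.15 in experiment 2 on the log2 scale (exact permutation p = 0.214 and p = 0.372, adjusted 0.429 and 0.486). The ratio of Grin3a to Grin1 differed by 0.031 in experiment 1 (exact permutation p = 0.849, adjusted 0.849). In experiment 2 the mean was -3.72 ± 0.80 with water gavage and -3.02 ± 0.67 with EtOH gavage, a difference of 0.70 that did not pass the test either (exact permutation p = 0.134, adjusted 0.409). The water gavage rats reached from -4.56 to -2.38 and the EtOH gavage rats from -3.82 to -1.95, so the ranges overlapped over most of their length. In these 12 libraries the ratio of Grin3a to Grin1 and that of the Grin2 sum to Grin1 were higher where more reads lay outside genes (r = 0.82 and 0.83, given as a description), and the 2 libraries with the highest share were of EtOH gavage rats.

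**Figure D3:**
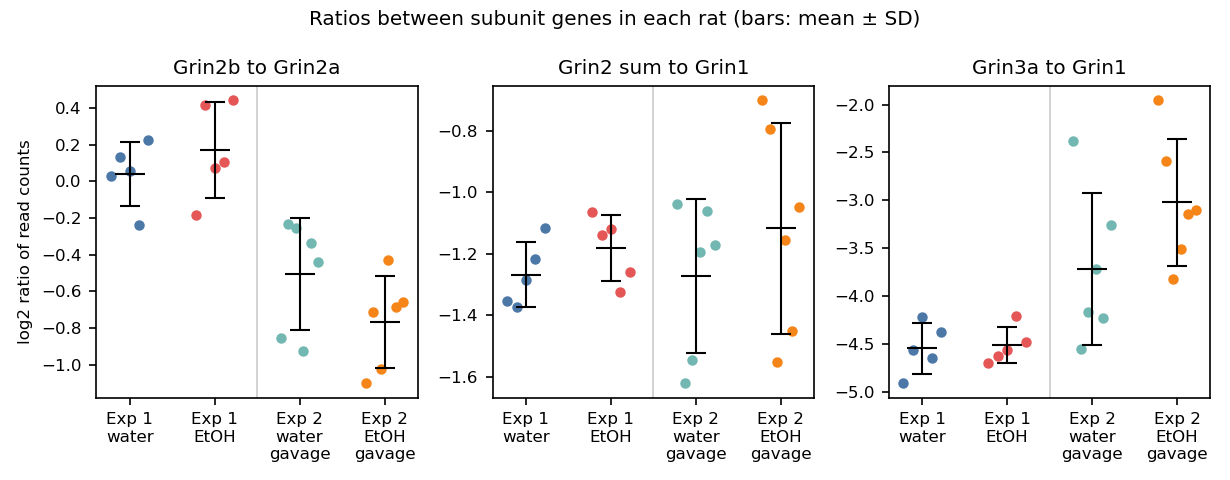
Log2 ratios of read counts (vertical axes) in each rat for Grin2b to Grin2a, the sum of the Grin2 genes to Grin1, and Grin3a to Grin1, by experiment and treatment. Points are rats and bars the mean ± SD. The EtOH and water groups overlap in every panel, and the Grin3a to Grin1 ratio is most spread in experiment 2, from -4.56 to -1.95.

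From rat to rat, the subunit genes of experiment 2 fell into those that moved with the proportion of unannotated reads (the percentage outside genes given above) and those for which no such relation passed the test. Over the 12 rats, Pearson's r with that share was -0.93 for Grin1 (permutation p = 3e-05, adjusted 0.000972), -0.94 for Grin2c (1e-05, the smallest the permutations can give, adjusted 0.00054) and -0.90 for Grin2d (5e-05, adjusted 0.0013). Spearman's rho was -0.94, -0.91 and -0.90 (permutation p = 7e-05, 0.00012 and 0.00028). Within the water gavage group r was -0.96, -0.92 and -0.94 for the 3 genes, and within the EtOH gavage group -0.88, -0.96 and -0.86. Without the 2 libraries farthest from the median share it was -0.86, -0.86 and -0.79. In all, 162 such relations were computed, with the other subunit genes, the share and 10 marker lists, and the p-values were adjusted over all of them.

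Such a relation was common in these libraries. Of the 8655 tested genes of experiment 2, 1389 had an r below -0.9 with the share and 893 one above 0.9, together 26.4%, whereas in experiment 1 0.0924% of the genes did. Grin2a (r = 0.44, adjusted permutation p = 0.463), Grin3a (0.47, 0.394) and Grin2b (-0.14, 0.842) showed no relation that passed the test. The 2 highest shares were those of EtOH gavage rats, and the comparison was fitted again with the share as a covariate. There the log2 fold change of Grin1 was 0.023 ± 0.11 in place of -0.31, that of Grin2c 0.0047 ± 0.23 in place of -0.63 and that of Grin3a 0.089 ± 0.24 in place of 0.28, all with an adjusted p of 0.9999. Grin2b was at -0.11 ± 0.17 and Grin2a at -0.0010 ± 0.18. The libraries with the highest shares were also those with the lowest cortical marker sums. Whether the share reflects the library or the tissue taken was not tested.

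**Figure D4:**
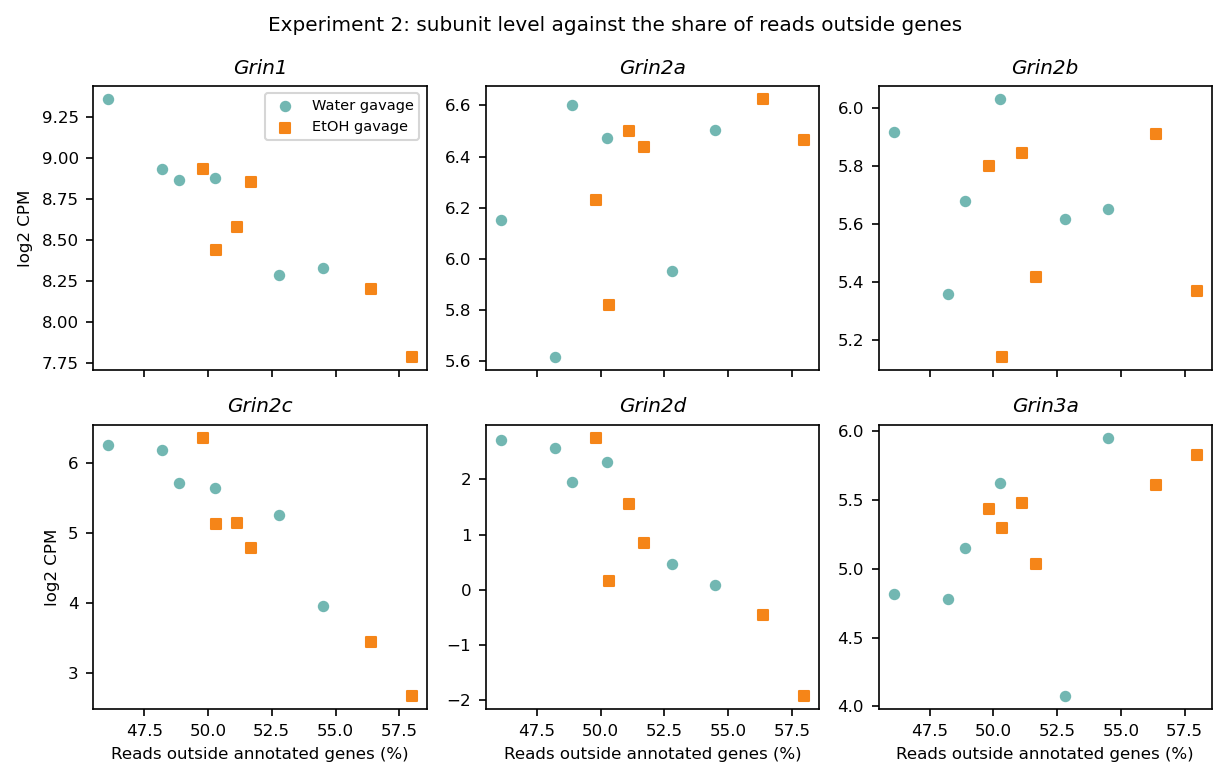
Log2 CPM of each subunit gene (vertical axes, each with its own range) against the percentage of reads outside annotated genes (horizontal axis) in the 12 rats of experiment 2. Circles are water gavage and squares EtOH gavage rats. Grin1, Grin2c and Grin2d decline along the axis in both groups (r = -0.93, -0.94 and -0.90), and Grin2a, Grin2b and Grin3a show no relation that passed the test.

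The same 3 genes correlated with each other in experiment 2. Pearson's r was 0.88 between Grin1 and Grin2c, 0.93 between Grin1 and Grin2d and 0.95 between Grin2c and Grin2d (permutation p = 9e-05, 2e-05 and 1e-05, adjusted 0.0018, 0.00081 and 0.00054; rho 0.88, 0.95 and 0.96). In experiment 1 the same pairs had r of -0.13, 0.058 and 0.44, none of which passed. There the related pair was Grin2a and Grin2b, with r = 0.81 over 10 rats (permutation p = 0.0038, adjusted 0.041), although rho, 0.78, had an adjusted p of 0.133, and r was 0.65 without the 2 farthest rats. In experiment 2 that pair had r = 0.53 (adjusted permutation p = 0.300). Of the 81 relations per experiment, 1 passed in experiment 1 and 14 in experiment 2. How many relations of other genes would pass was not computed, so the counts are no result about the subunit genes. In experiment 2 the first principal component held 74.0% of the variance, and 26.4% of tested genes had an r beyond 0.9 with the share. The points of a relation share their libraries, and so their depth and composition.

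**Figure D5:**
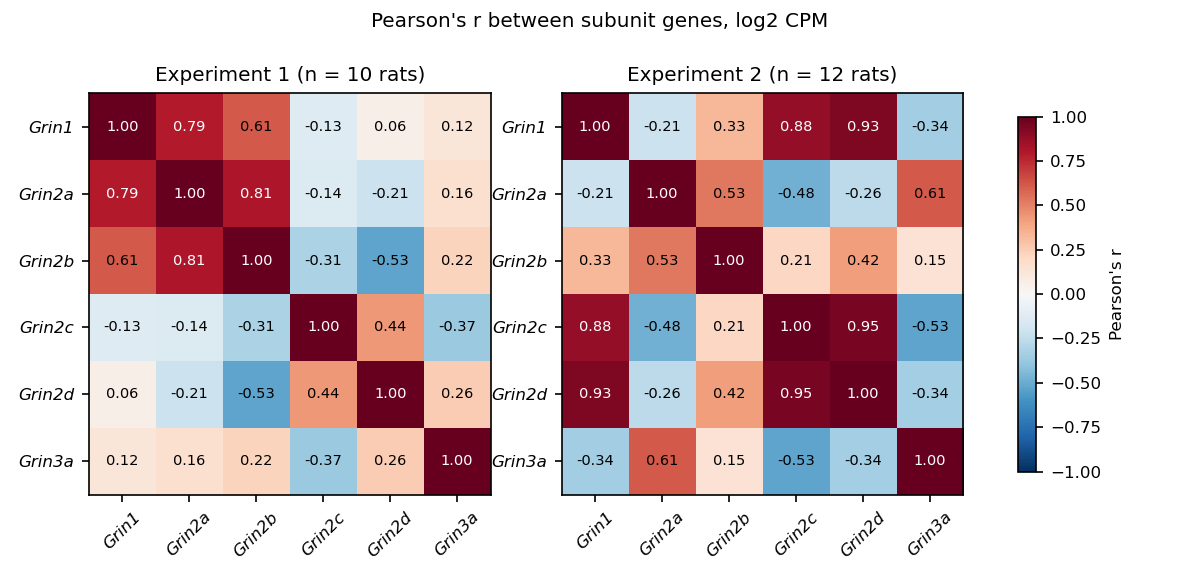
Pearson's r between the log2 CPM of each pair of subunit genes over the 10 rats of experiment 1 and the 12 rats of experiment 2, on a colour scale from -1 to 1. Grin1, Grin2c and Grin2d form a block of high r in experiment 2 (0.88, 0.93 and 0.95), and Grin2a and Grin2b have the highest r of experiment 1 (0.81).

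Summed markers of other cells moved with some of the subunit genes in experiment 2, although the markers of a list did not move as one. Grin2c followed the summed microglia markers (Cx3cr1, Aif1, P2ry12 and Csf1r; r = 0.94, permutation p = 1e-05, adjusted 0.00054; rho 0.96) and ran against the summed neuroblast markers (r = -0.90, permutation p = 0.00016, adjusted 0.0029; rho -0.94). Grin2d did likewise, with r of 0.88 and -0.79 (adjusted permutation p = 0.0014 and 0.0266; rho 0.94 and -0.84). The microglia sum was 152 to 334 CPM with water gavage and 148 to 269 CPM with EtOH gavage, with none of its 4 markers at 0, and the neuroblast sum 167 to 315 and 204 to 402 CPM, with Dlx2 at 0 in 4 libraries. Dcx, at 105 to 307 CPM, makes up most of the neuroblast sum, and its r with the share of reads outside genes was 0.81. That of Cd24, the next largest at 33.5 to 97.8 CPM, was 0.45. It was -0.51 for Dlx1, -0.70 for Dlx2 and -0.19 for Sox11, the sign found for Grin2c. In the microglia list, r with the share was -0.95 for Cx3cr1, -0.88 for Csf1r, -0.63 for Aif1 and 0.19 for P2ry12 (all over 12 rats, as a description). Grin1 had r = 0.79 with the microglia sum and, by Pearson's r only, 0.78 with the summed cortical excitatory neuron markers and -0.82 with the summed astrocyte markers (adjusted permutation p = 0.0289, 0.0278 and 0.0211; rho 0.89, 0.65 and -0.59, of which the last 2 had an adjusted p of 0.259 and 0.357). In the astrocyte list, r with the share was 0.82 for Aqp4, 0.67 for Gja1 and 0.62 for Slc1a3, which make up most of the sum. It was -0.93 for Gfap and -0.64 for Aldh1l1. Grin3a had r = -0.84 with the summed endothelial markers (adjusted permutation p = 0.0136), but rho was -0.60 with an adjusted p of 0.341. The part of these cells in the subunit levels was not tested, and in pieces of tissue fewer cells of a type and less RNA per cell cannot be told apart. In experiment 1, 2 marker sums did not overlap between the groups. The share of single tested genes without overlap, 0.843%, is no yardstick for sums of chosen genes. Dcx, Dlx1, Cd24 and Pdgfra make up most of these sums and are among the genes of lowest p-value that the paper lists for experiment 1. The lists were chosen with earlier results of these same data known, so the separation is no independent support. The neuroblast sum was 208 to 278 CPM in the water rats and 280 to 391 CPM in the EtOH rats, and the sum of the oligodendrocyte precursor markers Pdgfra and Cspg4 was 202 to 232 and 234 to 279 CPM, with 0 markers of either list called (lowest adjusted p = 0.536). No subunit gene had a relation with either sum that passed the test.

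The genes whose pattern was most like that of a subunit gene in both experiments are given as a description. After the group means were removed, Pearson's r was computed against 8175 genes in each experiment and the lower of the 2 values taken. For Grin1 these were Mef2d (0.92), Cacna1a (0.90) and Dmtn (0.89), for Grin2a Tanc2 (0.91), Necab1 (0.83) and Myo5a (0.83), and for Grin2b Cacna1e (0.74), Wdr7 (0.74) and Dip2c (0.73). For Grin2c they were Zfp142 (0.91), Itpkc (0.89) and Dhrs1 (0.87), and for Grin3a Pak3 (0.81), Csnk2a2 (0.79) and Mest (0.78). Cacna1a and Cacna1e encode voltage-gated calcium channels, Mef2d an activity-dependent transcription factor and Tanc2 a postsynaptic scaffold protein. By Spearman's rho, Grin2a kept 2 of its 3 genes, Tanc2 and Myo5a, Grin3a kept 1, Mest, and the other three subunit genes kept 0.

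Of the genes that work with the receptor, 0 were called at an adjusted p under 0.05 in every list of either experiment. In experiment 2 many of the genes named below went with the share of reads outside genes. Over the 12 rats, r was -0.97 for Grina, -0.92 for Shank3, -0.76 for Actn2, -0.96 for Camk2a and -0.75 for Ptpn5. It was -0.94 for Lin7b, 0.77 for Cask and 0.62 for Slc1a3 (as a description). An r beyond 0.9 in either direction was found for 26.4% of all tested genes. The part of that share in the fold changes of these lists was not tested. Grina, which carries an NMDA receptor name but encodes a membrane protein that is not a subunit, had a log2 fold change of -0.018 ± 0.056 in experiment 1 and -0.61 ± 0.47 in experiment 2 (adjusted p = 0.992 and 0.675). Grin3b, the second GluN3 gene, had 9.71 ± 3.58 and 8.84 ± 3.18 CPM in experiment 1 and 2.20 ± 1.34 and 1.57 ± 1.48 CPM in experiment 2 (water and EtOH groups), too few reads for the filter.

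Of the postsynaptic scaffold genes, 10 of 10 were tested in experiment 1, with 5 positive and 5 negative fold changes (median log2 -0.012). In experiment 2, 9 were tested, with 4 positive and 5 negative (median -0.10). The lowest p-values were those of Nefl (-0.16 ± 0.081) and Shank3 (0.11 ± 0.076) in experiment 1 and of Actn2 (-0.54 ± 0.33) and Shank3 (-0.62 ± 0.39) in experiment 2. Shank3 is a scaffold deep in the postsynaptic density, and Actn2 encodes an actinin that binds GluN1. Their adjusted p-values were 0.866, 0.914, 0.675 and 0.675.

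The 12 kinases, phosphatases and effectors of NMDA receptor signalling had 5 positive and 7 negative fold changes in experiment 1 (median log2 -0.015) and 1 positive and 11 negative in experiment 2 (median -0.38, where all tested genes had 0.0009). Nos1, the neuronal nitric oxide synthase that is tethered to the receptor through PSD-95, was at -0.30 ± 0.12 in experiment 1 (unadjusted p = 0.0239, adjusted p = 0.866), and Camk2a, the kinase activated by calcium entry through the receptor, at 0.13 ± 0.066 (adjusted p = 0.866). In experiment 2 Camk2a was at -0.64 ± 0.36 and Ptpn5, the striatal-enriched phosphatase STEP that acts on GluN2B, at -0.39 ± 0.25 (adjusted p = 0.675 each). The summed level of the list was 3366 to 6024 CPM with water gavage and 3128 to 4946 CPM with EtOH gavage. The fold changes of Camk2a had opposite signs in the 2 experiments, and in neither did they pass the test.

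Among 10 transport and surface partners, 9 were listed in the files and 7 tested in each experiment, with 2 positive and 5 negative fold changes in experiment 1 (median log2 -0.055) and 4 positive and 3 negative in experiment 2 (median 0.060). The lowest p-values belonged to Cask and Lin7b, which are partners in the complex that carries GluN2B vesicles. Cask was at -0.26 ± 0.11 and Lin7b at -0.14 ± 0.096 in experiment 1 (adjusted p = 0.866 and 0.914), and at 0.27 ± 0.18 and -0.83 ± 0.54 in experiment 2 (adjusted p = 0.675 each).

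Of 8 genes that handle the co-agonists, 6 were tested, with 4 positive and 2 negative in experiment 1 (median log2 0.032) and 2 positive and 4 negative in experiment 2 (median -0.43). Slc6a5, a glycine transporter, was at -0.37 ± 0.20 and Slc7a10, a D-serine and glycine transporter, at -0.13 ± 0.11 in experiment 1 (adjusted p = 0.875 and 0.930). Srr, which makes D-serine, was at 0.25 ± 0.14 and Psph, the last enzyme of L-serine synthesis, at -0.44 ± 0.24 in experiment 2 (adjusted p = 0.675 each). Most of the co-agonist genes named here went with the share of reads outside genes in experiment 2. There r was 0.90 for Srr, -0.91 for Psph, -0.91 for Slc7a10 and 0.29 for Slc6a5 (as a description). The 5 genes of glutamate uptake and recycling had 5 positive fold changes in experiment 1 (median log2 0.023) and 4 positive and 1 negative in experiment 2 (median 0.036). The astrocyte glutamate transporter gene Slc1a3 was at 0.10 ± 0.052 and the neuronal transporter gene Slc1a1 at 0.041 ± 0.10 in experiment 1 (adjusted p = 0.866 and 0.989), and in experiment 2 Slc1a3 was at 0.093 ± 0.13 (adjusted p = 0.725).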

How the data were processed

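PolyA+ RNA from the NAc of 22 rats was sequenced, with unstranded libraries in experiment 1 and stranded ones in experiment 2. The authors aligned the reads to the rat genome (rn6, Rnor_6.0) with TopHat2 and deposited raw read counts per gene from htseq-count, without normalization; the submitters' processing notes name TopHat2 2.0.13, HTSeq 0.5.3p3 and 0.6.0 and DESeq2 1.6.2. The files hold 17310 genes and 5 summary lines, which were left out of library sizes; of these the reads outside genes are 46.1 to 58.0% as defined in the report. Lrrc26, Grwd1 and Ppp3r2 overlap Grin1, Grin2d and Grin3a in the RefSeq table of GRCr8, so in the unstranded libraries reads over both genes of such a pair cannot be told apart. No transcript lengths were used here.

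Groups and replicate numbers came from the labels. Each experiment was fitted on its own in edgeR 4.0.16 (R 4.3.3) with TMM and the quasi-likelihood test, over genes with a mean of size-factor-scaled counts above the median of the listed genes (43.6 and 66.4), with Benjamini-Hochberg adjustment. SE follow from the F statistic and the fold change. Log2 CPM used a prior count of 2 and ratios a pseudocount of 0.5. Correlations across rats used 100000 permutations. The fits were tested on simulated counts in which each gene varied on its own. In experiment 2 the first principal component held 74.0% of the variance, and such shared variation was not simulated. The labels do not state more than replicate numbers, but the methods describe separate rats; replicates differed beyond sampling noise in every group (chi-square per degree of freedom at least 2.67).

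The members, pathway lists and marker lists were chosen with earlier results of these data known. Named were the 6 members, Grin3b and Grina, the 2 genes of lowest p in each pathway list and experiment (1 of them is not reported here), and for each member tested in both experiments the 3 genes most like it. The 10 marker lists were for striatal projection neurons, striatal interneurons, cortical excitatory neurons, neuroblasts and astrocytes. The others were for oligodendrocytes, oligodendrocyte precursors, microglia, endothelial cells and choroid plexus with ependyma. They had 0 genes called in either experiment, against 0% of all 8655 tested genes. Of the choroid plexus and ependyma list, 1 gene was tested in experiment 1 and 0 in experiment 2, and Npy was at 0 in every library. Alternatives were DESeq2 1.42.0, its size factors, other filters, 1 fit over the 4 groups, a replicate block, a covariate for the share of reads outside genes, and the omission of single rats; leaving out 3 libraries, the first principal component as a covariate and the correlations were added after the data were seen.

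Same-numbered rats did not deviate together in experiment 1 (r from -0.13 to 0.14). In experiment 2 some did and some did not, with r of 0.84, 0.55, 0.20 and 0.43 for numbers 1, 3, 4 and 6 and of -0.76 and -0.35 for numbers 2 and 5. No rat of experiment 2 correlated best with its own number, and the numbers were not treated as pairs.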

Additional observations from a re-analysis of the deposited data

Results flagged for a closer look

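In 40 groups of values, the levels, ratios and shares of reads outside genes of the 4 groups of rats, 1 stood out by a rat far from the others of its group, where chance gives about 2 (1 in 20). The Grin2d level of EtOH rat 2 in experiment 1 was 9.49 CPM (36 reads), and the other 4 EtOH rats were at 15.4 to 17.3 CPM. The gap was 0.758 of the range of the group.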

How the results depend on the processing

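In both experiments the number of subunit genes called at an adjusted p under 0.05 was 0 under every alternative run, and no alternative brought a subunit gene, ratio or difference between experiments past its threshold. The sign of Grin2b in experiment 1, which was at 0.0044, turned in several fits, to -0.0062 with DESeq2, -0.00033 with no filter, -0.0045 with all 4 groups in one fit, -0.017 with the replicate block and -0.021 with the share of reads outside genes as a covariate. With that covariate Grin1, Grin2a and Grin2c of experiment 2 turned to 0.023, -0.0010 and 0.0047, and with the first principal component in its place they were at -0.036, 0.037 and -0.16. Leaving out each rat in turn, the log2 fold change in experiment 1 ranged from -0.28 to 0.036 for Grin2a, from -0.20 to 0.11 for Grin2b, from -0.11 to 0.083 for Grin2d and from -0.15 to 0.019 for Grin3a, the difference between experiments from -0.24 to 0.092 for Grin2b, and the ratio of Grin3a to Grin1 in experiment 1 from -0.062 to 0.11. Grin2c in experiment 2 ranged from -1.15 without EtOH gavage rat 4, where its unadjusted p was under 0.05, to -0.41 without EtOH gavage rat 1. Values that kept their sign also moved by over 1.5 times, with ranges of -0.41 to -0.17 for Grin1, 0.011 to 0.19 for Grin2a, -0.19 to -0.048 for Grin2b and 0.13 to 0.50 for Grin3a in experiment 2, -0.10 to -0.017 for Grin1 and 0.034 to 0.15 for Grin2c in experiment 1, and -1.25 to -0.51 for Grin2c in the difference between experiments. The cause of these turns was not tested.

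The replicate block, for numbers that were not treated as pairs, gave -0.31 for Grin1, -0.88 for Grin2c and 0.38 for Grin3a in experiment 2 (adjusted p = 0.529 each) and changed no call. It moved the number of all genes with an unadjusted p under 0.05 from 115 to 414 in experiment 2 and from 483 to 476 in experiment 1, and 1 of 5 rats in experiment 1 and 0 of 6 in experiment 2 correlated best with its own number. The main fits had 1.33% of 8655 genes under 0.05 in experiment 2 and 5.58% in experiment 1. With all 4 groups in one fit that number was 587 in experiment 2 and 80 in experiment 1 (7.18% and 0.978% of 8176 genes). In that order it was 315 of 14110 and 632 of 14022 genes with DESeq2 (2.23% and 4.51%). With no filter it was 286 of 14121 and 820 of 14024 (2.03% and 5.85%). Leaving out each rat, it was 30 (without water gavage rat 2) to 776 (without water gavage rat 1) in experiment 2. It was 768 there without EtOH gavage rat 4. In experiment 1 it was 378 to 739 (739 without water rat 5). Another transcript length was not run. The depth limits Grin2d most, with 0 to 48 reads per library in experiment 2, and the spread between rats limits Grin2c there.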
